A study of Mus musculus with 4 samples.

Results

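The cytosolic ribosomal protein genes encode the protein parts of the ribosome that works outside mitochondria. They were taken by name from the gene annotation (GENCODE vM21): protein-coding genes whose symbol is Rpl or Rps followed by a digit, with Rplp0, Rplp1, Rplp2 and Rpsa, and without pseudogenes and S6 kinases. Of 86 such genes among 55573 in the files, 84 reached 1 FPKM in at least 1 library, and 12817 genes of any kind did so. FPKM counts sequenced fragments relative to exonic length in kilobases and to each 1000000 fragments assigned to genes. Rpl3l and Rpl10l, the genes left out, had 0 FPKM in all 4 libraries, and Rps13, the member nearest to the limit, had 1.29 FPKM in its highest. By symbol, the 84 comprise 50 large-subunit genes, paralog forms such as Rpl7l1 included, 33 small-subunit genes and Rps19bp1. The naming rule catches Rps19bp1 although it encodes a partner of the RPS19 protein and no part of the ribosome. Rps19bp1 had 13.2 FPKM in the knockout, 18.2 with siDyrk2, 14.9 with siNeg and 15.2 in wild type.

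RNA was sequenced from primary mouse embryonic fibroblasts (MEFs), cells grown from embryos and used before they become a line. All cultures had been kept for 24 h with 100 nM SAG, which activates Smoothened and with it the Hedgehog pathway. The 4 libraries, 1 per group, were Dyrk2 knockout cells, wild-type cells with an siRNA against Dyrk2 (siDyrk2), wild-type cells given a control siRNA (siNeg), and wild-type cells whose labels name no siRNA. The series asked how the kinase DYRK2 acts on Hedgehog signalling. The labels name neither the knockout's design nor separate embryos. Without replicates, every difference below is between 2 libraries, has no replicate check and has no test.

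Each ribosome carries 1 copy of nearly every ribosomal protein, and a small subunit that reads the messenger RNA joins a large subunit that forms the peptide bond. Mammalian ribosomal protein mRNAs start with a C followed by a run of pyrimidines, the TOP motif, through which the mTORC1 kinase and the RNA-binding protein LARP1 regulate their translation. Growing cells such as cultured fibroblasts make these mRNAs in large amounts, and many processed pseudogenes have arisen from them.

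The start of the transcript is shown first, because the TOP motif is the sequence feature that these genes are known to share. RefSeq promoter windows (GRCm38.p6, 250 bases before to 50 after the start) were found for 64 of the 84 genes, in 75 windows. A C at the annotated start followed by at least 4 pyrimidines (C or T) stood in 18.67% of these windows, those of 14 genes. It stood in 2.29% of the windows of protein-coding genes that reached 1 FPKM in a library, members included. The lines below give 20 bases on each side of the start, 5′ to 3′ on the strand of the gene, with the pyrimidine run in capitals. Rps25, Rps26 and Rps3 have no run at the annotated start and are shown because their genes were among those at least 1.2-fold higher with siDyrk2 than with siNeg.
Rpl28 (chr7:4792945-4792984, plus strand): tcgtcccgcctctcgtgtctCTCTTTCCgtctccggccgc
Rpl35 (chr2:39005112-39005151, minus strand): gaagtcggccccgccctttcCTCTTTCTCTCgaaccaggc
Rpl38 (chr11:114668560-114668599, plus strand): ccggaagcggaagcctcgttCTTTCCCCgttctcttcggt
Rplp2 (chr7:141447631-141447670, plus strand): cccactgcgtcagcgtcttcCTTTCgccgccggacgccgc
Rps6 (chr4:86857348-86857387, minus strand): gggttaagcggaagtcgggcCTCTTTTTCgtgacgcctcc
Rps25 (chr9:44407694-44407733, plus strand): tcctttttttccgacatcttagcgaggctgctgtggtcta
Rps26 (chr10:128626487-128626526, minus strand): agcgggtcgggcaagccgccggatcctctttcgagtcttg
Rps3 (chr7:99483690-99483729, minus strand): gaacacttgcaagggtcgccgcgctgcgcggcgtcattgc

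Allowing the run to begin anywhere from 5 bases before the start to 14 after it, 49.33% of the members' windows held one. The share was 25.49% for the same protein-coding genes that reached 1 FPKM. The letters CCGGAAG on either strand stood in 36.0% of the members' windows, against 18.17% in that set and 8.86% of all windows. GCCATCTT on either strand stood in 10.67%, against 4.63% in that set and 2.75% of all windows. These searches describe letters in windows around annotated starts and do not show where transcription began in these cells.

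Estimated depth was 21.9 M fragments (M, 1000000) in the knockout, 21.5 M with siDyrk2, 19.98 M with siNeg and 23.9 M in wild type. Dyrk2 (ENSMUSG00000028630) had 0.57 FPKM in the knockout, 0.81 with siDyrk2, 7.06 with siNeg and 6.59 in wild type, so the lowered gene matches the labels. All 9 fibroblast markers, collagen genes among them, were measured, with summed levels of 8341, 5927, 7322 and 7562 FPKM in the same order. Macrophage markers summed to 543.9, 390.7, 315.4 and 272.0 FPKM, with 10 of 11 measured, the exception being Ptprc at 0.75 FPKM or less. No endothelial, epithelial or erythroid marker reached 1 FPKM, and Tie1 and 4 of 5 erythroid markers were at 0 in every library. Of the neural markers 2 of 4 were measured, and their sum was 8.90, 23.6, 14.2 and 13.4 FPKM.

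The ribosomal protein genes took a larger part of the siDyrk2 library than of the other libraries. They held 2.18% of the assigned fragments in the knockout, 2.41% with siDyrk2, 2.11% with siNeg and 2.16% in wild type. The share was 1.14 times as large with siDyrk2 as with siNeg, 1.01 times as large in the knockout as in wild type, and 0.976 times as large with siNeg as in wild type. Both subunits showed the same order at the top: large-subunit genes held 1.36% with siDyrk2, against 1.19% with siNeg, and small-subunit genes 1.05%, against 0.918%. In bulk RNA a difference of this kind does not separate more of a cell type from more of these mRNAs per cell, and fewer cells of a type and less RNA per cell cannot be told apart.

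**Figure D1:**
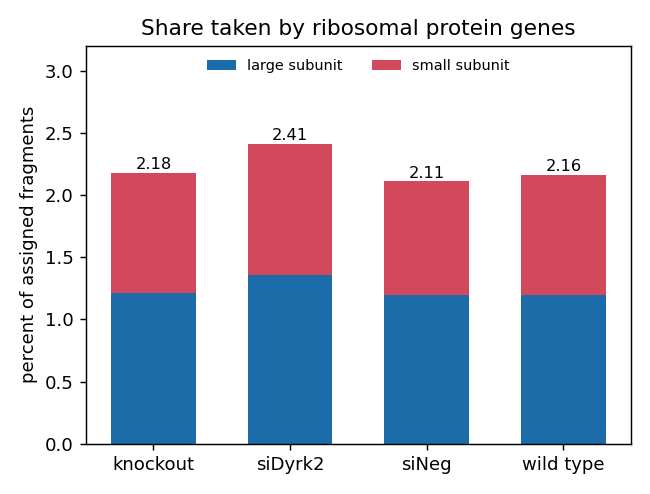
Percent of assigned fragments taken by the ribosomal protein genes in each library, 1 bar per library, split into large and small subunit. The siDyrk2 bar reaches 2.41% and the other bars lie between 2.11% and 2.18%.

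With siDyrk2, most ribosomal protein mRNAs were a little more abundant than with siNeg. Of the 84 genes, 75 were higher and 9 were lower, where 54.3% of all 12817 genes were higher. The median log2 ratio of FPKM + 1 was 0.18 (quartiles 0.11 and 0.24), a median fold of 1.13, against 0.02 over all genes. On the scale of FPKM + 1, which damps low genes, 18 members were at least 1.2-fold higher and none was at least 1.2-fold lower, where 17.5% and 11.9% of all genes were. On that scale no member differed 2-fold, a size that 1.54% of all genes reached. Among the 414 genes that reached 100 FPKM in a library, members included, 74.4% were higher with siDyrk2, and the 375 of them outside the family had a median of 0.12. Of the 39 members among them, 38 were higher.

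The large-subunit genes were higher in 47 of 50 cases (median 0.17) and the small-subunit genes in 27 of 33 (median 0.19). The 95% counting interval of the fold, which covers counting error only, lay above 1 for 62 genes, below 1 for Rpl10a alone, and held 1 for 21. Over all genes it lay above 1 for 28.3% and below 1 for 23.1%. Such intervals narrow with level: among genes that reached 100 FPKM, 66.9% lay above 1 and 21.7% below, and of the 39 members 37 lay above. The siDyrk2 library was the highest of the 4 for 59 of the 84 genes, where it was highest for 31.7% of all genes and for 54.6% of genes that reached 100 FPKM. For 63 members it lay above both siNeg and wild type, a count that has no share over all genes beside it. The siNeg library was the lowest of the 4 for 35 members, where it was lowest for 27.2% of all genes and 31.2% of genes that reached 100 FPKM, and both comparisons that use siNeg share that library.

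**Figure D2:**
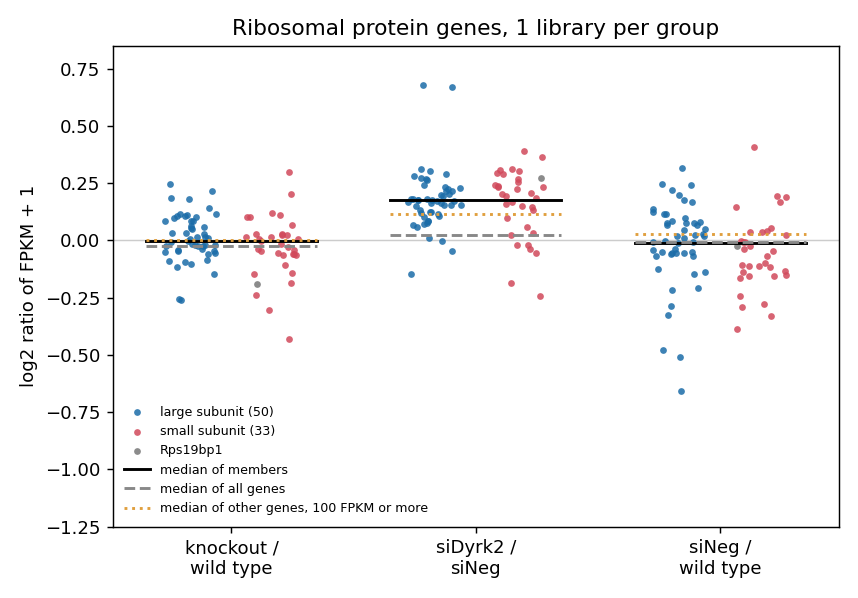
Log2 ratio of FPKM + 1 for each ribosomal protein gene in the 3 comparisons, 1 point per gene, coloured by subunit, with lines for the medians of the members (solid), all genes (dashed) and other genes that reached 100 FPKM (dotted). The siDyrk2 against siNeg points centre on 0.18, and those of the other comparisons on about 0.

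The stalk of the large subunit, made of RPLP0, RPLP1 and RPLP2, recruits the translation factors that spend GTP. Rplp1 (chromosome 9, 61913284 to 61914542, GRCm38) was the most abundant member, with 2263 FPKM in the knockout, 2643 with siDyrk2, 2257 with siNeg and 2271 in wild type. Its fold was 1.17 with siDyrk2 against siNeg (counting interval 1.15 to 1.19). Rplp0 (chromosome 5, 115559467 to 115563727), a common reference gene in expression assays, had 972.5, 1022, 942.7 and 934.8 FPKM in the same order, a fold of 1.08 (1.07 to 1.10). Rplp2 had 170.2, 201.1, 174.5 and 180.5 FPKM, a fold of 1.15 (1.12 to 1.19). Each stalk gene was highest with siDyrk2. In the knockout against wild type their folds were 1.04 for Rplp0, 0.997 for Rplp1 and 0.943 for Rplp2. Rpsa, the small-subunit protein also known as the laminin receptor, had 189.3, 214.9, 191.2 and 185.9 FPKM.

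Of the 39 members that reached 100 FPKM, 32 were highest with siDyrk2 and 7 were not. Among the 7 was Rps4x, the X-linked form of a small-subunit protein, with 487.0 FPKM in the knockout, 450.5 with siDyrk2, 442.5 with siNeg and 478.2 in wild type. Rpl4, a core protein of the large subunit that reaches into the exit tunnel, had 679.3 FPKM in the knockout, 816.0 with siDyrk2, 702.3 with siNeg and 680.2 in wild type. Rps15, at the decoding side of the small subunit, had 869.7, 972.4, 831.2 and 810.8 FPKM. The siDyrk2 level was 1.16 times the siNeg level for Rpl4 and 1.17 times for Rps15.

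By the log2 ratio of FPKM + 1, the highest canonical members with siDyrk2 were Rps6, Rps25 and Rpl32. Rps25 (chromosome 9, 44407139 to 44410427), which some viral RNAs need to recruit the ribosome, had 101.9 FPKM in the knockout, 137.3 with siDyrk2, 106.3 with siNeg and 104.6 in wild type. That was 1.29-fold with siDyrk2 (1.25 to 1.34), and the other libraries lay close together. Rpl32 (chromosome 6, 115805505 to 115808747) had 519.0, 633.3, 510.0 and 525.0 FPKM, a fold of 1.24 (1.21 to 1.27). Rps6, the substrate of the S6 kinases, had only 7.35, 8.75, 6.44 and 6.25 FPKM, a fold of 1.36 (1.13 to 1.63). For each of these genes siDyrk2 was the highest library. Rps26 had 270.6, 356.3, 287.0 and 250.7 FPKM, and Rps3, at the mRNA entry of the small subunit, had 160.0, 181.7, 148.5 and 166.5 FPKM.

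The 9 members that were lower with siDyrk2 than with siNeg were Rpl10, Rpl10a, Rpl23a, Rps7, Rps13, Rps16, Rps27a, Rps27rt and Rps29. Rpl10a had 19.1 FPKM in the knockout, 16.0 with siDyrk2, 17.8 with siNeg and 19.7 in wild type, a fold of 0.898 (0.816 to 0.989). Rps29, a small zinc-binding protein of the small subunit, had 5.34, 8.13, 9.39 and 6.82 FPKM. Rps13 had 0.70, 0.74, 1.06 and 1.29 FPKM and was the least abundant member. Both rest on few fragments, 81 to 130 in a library for Rps29 and 41 to 83 for Rps13.

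**Figure D3:**
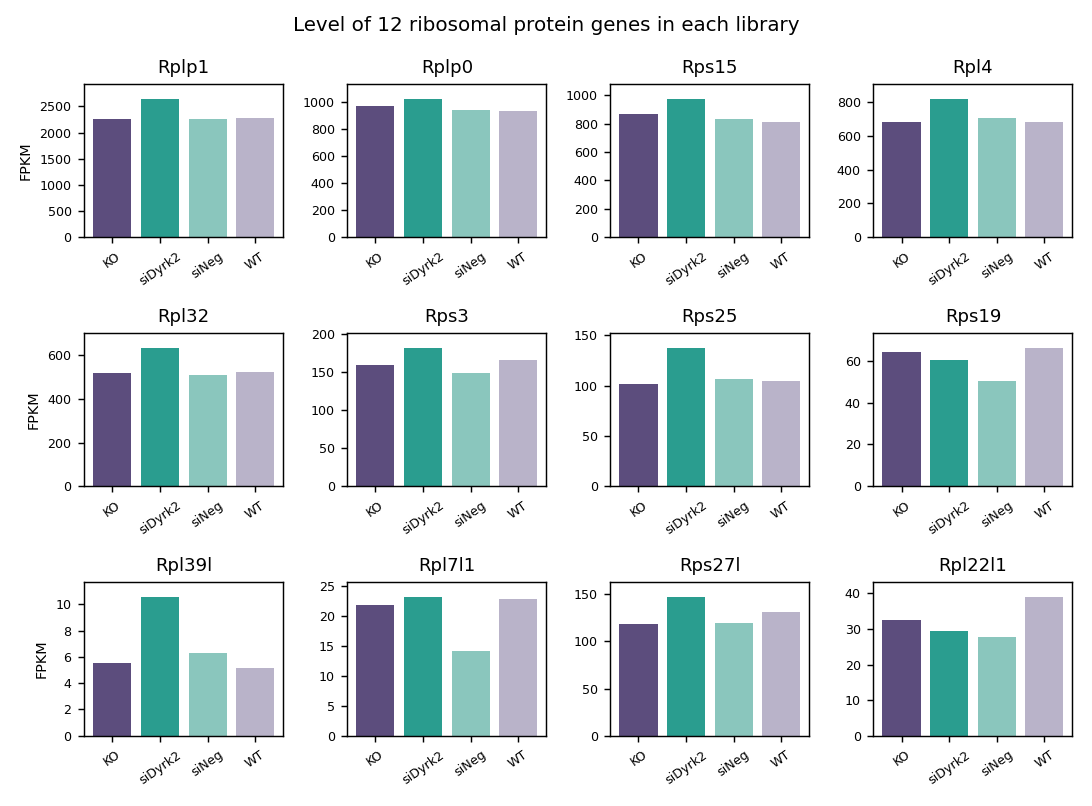
FPKM of selected ribosomal protein genes in each of the 4 libraries, 1 bar per library, on axes that start at 0. For Rplp1 the siDyrk2 bar reaches 2643 FPKM and the other bars lie between 2257 and 2271.

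Gene length moved with this comparison in genes outside the family too. Among genes of at least 10 FPKM outside the family, the median log2 ratio of siDyrk2 against siNeg was 0.22 for those with under 1 kb of exon, 0.16 at 1 to 2 kb, 0.06 at 2 to 4 kb and -0.04 at 4 kb or more. The members had medians of 0.21, 0.17, 0.15 and 0.24 in the same classes, with 13, 35, 30 and 6 genes. Below 2 kb the members lay close to the other genes, and from 2 kb they lay above them. Less the median of the other genes in the same length class, an alternative chosen after seeing the data, the members had a median of 0.05, with 57 of 84 higher. The authors' length joins all annotated exons, with a median of 1754.5 bases, while the principal transcript of the members has a median of 756 bases and is under 1 kb in 61 of them. The part of length in the siDyrk2 difference was not tested.

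**Figure D4:**
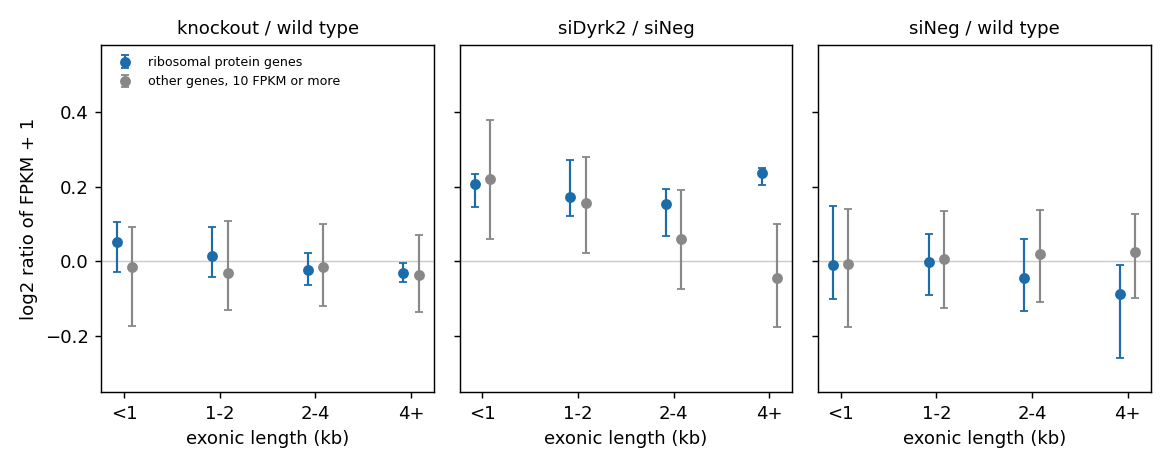
Median log2 ratio of FPKM + 1 by exonic length class in each comparison, for ribosomal protein genes and for other genes of at least 10 FPKM, with bars from the lower to the upper quartile over genes. With siDyrk2 against siNeg the other genes run from 0.22 under 1 kb to -0.04 at 4 kb or more, and the members from 0.21 to 0.24.

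Neither level nor start sequence separated the members much in this comparison. The median was 0.20 for the 39 members of at least 100 FPKM, 0.16 for the 31 from 10 to 100 FPKM and 0.16 for the 14 below. It was 0.19 for the 14 genes with a pyrimidine run at the annotated start, 13 of them higher, and 0.17 for the 50 others with a window, 45 of them higher. Across all libraries, the highest was under 1.5 times the lowest for 80 of 84 members, where that held for 67.9% of all genes and 80.7% of genes that reached 100 FPKM. All 39 members that reached 100 FPKM were under this limit. The exceptions were Rpl39l, Rpl7l1, Rps13 and Rps29.

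In the knockout the family as a whole sat at the wild-type level. Of 84 genes, 41 were higher and 43 lower, where 43.7% of all genes were higher, and the median log2 ratio was -0.0016 (quartiles -0.06 and 0.07) against -0.02 over all genes. Under 2 other scalings 53 of the 84 were higher, so the split between higher and lower depends on the scaling. On the scale of FPKM + 1, 1 member was at least 1.2-fold higher and 2 were at least 1.2-fold lower, where 10.1% and 13.2% of all genes were. None differed 2-fold on that scale, a size that 1.78% of all genes reached. The 1 higher member was Rps27, with a fold of 1.31 whose counting interval held 1 (0.955 to 1.81). The 2 lower members were Rps13, with a fold of 0.543 (0.362 to 0.795), and Rps29, with 0.783, whose interval held 1 (0.582 to 1.05). Each of them had under 10 FPKM in every library. Of genes that reached 100 FPKM, 51.2% were higher. The counting interval lay above 1 for 16 members and below 1 for 13, where it lay above 1 for 19.1% and below 1 for 26.2% of all genes. Among genes that reached 100 FPKM the shares were 37.9% and 38.6%.

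Among the higher members in the knockout, Rpl23a, at the mouth of the exit tunnel, had 78.3 FPKM in the knockout and 65.9 in wild type, a fold of 1.19 (1.10 to 1.28). Rpl38, which in mouse embryos is needed for the translation of Hox mRNAs, had 37.9 and 32.5 FPKM, a fold of 1.17 (1.02 to 1.34). Rpl11, which with RPL5 binds MDM2 when it is free of ribosomes, had 24.9 and 21.7 FPKM, a fold of 1.14 (1.06 to 1.23). Rpl5 itself had 7.95 and 8.09 FPKM, a fold of 0.983 whose interval held 1 (0.885 to 1.09).

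Among the lower members, Rpl21 had 38.0 FPKM in the knockout and 45.6 in wild type, a fold of 0.832 (0.792 to 0.874). Rpl22l1, a paralog of Rpl22, had 32.5 and 38.9 FPKM, a fold of 0.834 (0.778 to 0.894). Rps12 had 4.98 and 6.06 FPKM, a fold of 0.822 (0.687 to 0.982). Differences of this size also occurred between siNeg and wild type.

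Between both controls, siNeg against wild type, 36 members were higher and 48 lower, where 48.3% of all genes were higher and 55.1% of those that reached 100 FPKM. The median log2 ratio was -0.01, against -0.01 over all genes. The counting interval lay above 1 for 18 members, below 1 for 30, and held 1 for 36. So intervals that leave out 1 were common between these controls too. The shares over all genes are not given here for this pair. On the scale of FPKM + 1, 2 members were at least 1.2-fold higher and 9 at least 1.2-fold lower, where 9.62% and 13.4% of all genes were, and none differed 2-fold, where 0.928% did. Those 9 were Rpl12, Rpl22l1, Rpl24, Rpl7l1, Rpl9, Rps10, Rps15a, Rps19 and Rps21. Rps19, the gene mutated in many patients with Diamond-Blackfan anaemia, had 50.2 FPKM with siNeg and 65.9 in wild type, a fold of 0.761 (0.734 to 0.790). Rpl9 had 23.9 and 34.4 FPKM, and Rps10 had 17.9 and 22.7 FPKM. The small-subunit genes had a median of -0.07, with 10 of 33 higher, and the large-subunit genes one of 0.01, with 26 of 50 higher.

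Since siNeg is the library under both siRNA comparisons, the remaining libraries are given for those members too. Rps19 had 63.8 FPKM in the knockout and 60.0 with siDyrk2, Rpl9 had 32.0 and 25.8, and Rps10 had 21.7 and 18.3. Set against wild type in place of siNeg, the siDyrk2 library had 68 of 84 members higher, with a median log2 ratio of 0.16. The share of all genes that were higher in that pairing is not given here, so the count has no background beside it. The knockout and siRNA comparisons share no library, and across the 84 genes their ratios correlated at 0.175 (Pearson) and 0.00 (Spearman), a description across genes that are not independent replicates.

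Several members have paralogs by name, and whether these proteins enter the ribosome is not shown by RNA levels. Rpl39l (chromosome 16, 10170226 to 10174911), known as a testis form of Rpl39, had 5.50 FPKM in the knockout, 10.5 with siDyrk2, 6.26 with siNeg and 5.13 in wild type. Its fold with siDyrk2 against siNeg was 1.68 (1.32 to 2.16), while Rpl39 had 171.4, 165.4, 153.5 and 177.3 FPKM. Rpl7l1 (chromosome 17, 46773907 to 46782672) had 21.8, 23.1, 14.1 and 22.8 FPKM, so that siNeg alone was low. Its partner Rpl7 had 264.7, 290.6, 256.4 and 268.6 FPKM, and no such gap.

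The other pairs were less spread. Rpl22l1 was 0.296 times the FPKM of Rpl22 in the knockout, 0.242 times with siDyrk2, 0.262 times with siNeg and 0.359 times in wild type. Rps27l, a target of p53, had 118.4, 146.7, 119.4 and 131.2 FPKM in the same order, and a fold of 1.23 with siDyrk2 (1.16 to 1.30). Its partner Rps27 is listed at 3.94, 3.66, 3.17 and 3.01 FPKM. Rps27 shares nearly all of its sequence with other genes, so this ratio of levels is uncertain.

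Shared sequence limits how far levels within the family can be read. Of the 50-base words in the principal transcripts, a median of 44.0% occurred in no other annotated gene, and a member shared words with a median of 10 other genes. Rps27 had 1.35% unique words, Rpl35 4.91%, Rpl5 6.16% and Rps13 17.0%, whereas Rps3 had 97.0% and Rpl4 83.6%. Among members named above for their ratios, Rpl10a had 11.9%, Rpl23a 14.3%, Rps6 15.4% and Rps25 27.2%, whereas Rpl32 had 69.4% and Rpl21 73.8%. Where the unique share is low, the fold of a single gene is uncertain. Across the 84 genes the unique share had a Spearman correlation of 0.29 with mean FPKM and of 0.335 with the siDyrk2 ratio. In the 36 members with at least 50% unique words the siDyrk2 median was 0.21, and in the 19 under 20% it was 0.16. Pseudogenes named for members held 0.186% of the fragments in the knockout, 0.211% with siDyrk2, 0.180% with siNeg and 0.184% in wild type, the same order of libraries at the top.

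**Figure D5:**
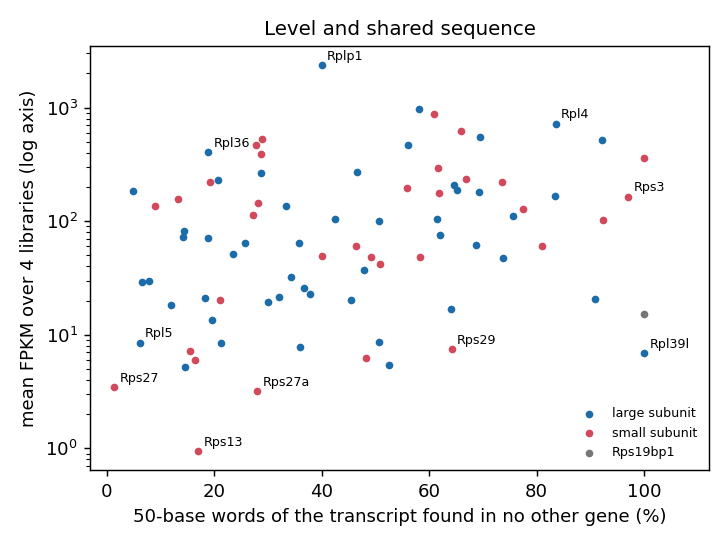
Mean FPKM over the 4 libraries (log axis) against the percent of 50-base words of each member's principal transcript that occur in no other annotated gene. Rps27 at 1.35% and Rps13 at 17.0% lie low, and Rplp1 lies highest at 40.0%.

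Genes of the surrounding machinery were read from fixed lists. For these counts, 54.3% of all genes and 74.4% of genes that reached 100 FPKM were higher with siDyrk2 than with siNeg. In the knockout against wild type the shares were 43.7% and 51.2%. Of 19 other mRNAs of the translation machinery that carry the TOP motif, 16 were higher with siDyrk2 than with siNeg (median 0.16). Eef1g, a subunit of the elongation factor that reloads EEF1A, had 146.6 FPKM in the knockout, 200.5 with siDyrk2, 153.6 with siNeg and 151.4 in wild type. Pabpc1, the poly(A)-binding protein, had 207.7, 277.1, 233.5 and 206.8 FPKM. Eef1a1 had 3403, 3788, 3429 and 3308 FPKM, again highest with siDyrk2.

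The genes that build ribosomes were more evenly split with siDyrk2. Of 34 biogenesis factors 20 were higher with siDyrk2 and 14 lower (median 0.01), and in the knockout 5 were higher and 28 lower than in wild type (median -0.12). Of 14 genes of RNA polymerase I and its factors, 11 were higher with siDyrk2 (median 0.09) and 5 in the knockout (median -0.13). The nucleolar protein gene Ncl had 48.2 FPKM in the knockout, 65.1 with siDyrk2, 42.5 with siNeg and 53.7 in wild type. Of the 10 host genes of small nucleolar RNAs, 7 were higher with siDyrk2 (median 0.29), among them Gas5 with 73.2, 68.3, 54.3 and 72.6 FPKM. Of 15 measured mTORC1 and TOP regulators 9 were higher (median 0.01), and of 13 assembly chaperones and importers 4 were (median -0.02).

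Both sets that serve mitochondria were mostly higher with siDyrk2 too. Of the 74 measured mitochondrial ribosomal protein genes 58 were higher than with siNeg and 15 lower (median 0.17). All 13 protein-coding mitochondrial genes were higher (median 0.23). Of all genes 54.3% were higher, and 74.4% of those that reached 100 FPKM. Genes outside the family had medians of 0.22 under 1 kb of exon and 0.16 at 1 to 2 kb, and these sets were not compared by length. In the knockout the mitochondrial ribosomal protein genes were lower in 55 cases of 74 (median -0.04). G2/M genes were lower in the knockout in 15 of 15 cases (median -1.14), lower with siDyrk2 in 10 and higher in 4 (median -0.14), and in siNeg against wild type 15 of 15 were higher (median 0.50). The part of cell division, and of the marker levels given above, in the family's values was not tested.

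Patterns across the 4 libraries were compared for 660 genes outside the family with at least 50 FPKM in every library. The pattern closest to the median member's was that of mt-Nd5, a mitochondrial subunit of respiratory complex I. This gene had 766.3 FPKM in the knockout, 835.0 with siDyrk2, 739.6 with siNeg and 753.1 in wild type. Next came the gene models Gm6863 and Gm10275, then Eif3f, a subunit of an initiation factor, with 103.6, 115.0, 99.3 and 101.2 FPKM, and Bcap31. Likeness was the Euclidean distance between log2 profiles over 4 libraries, which is few points. Each profile was centred on the gene's own mean, so the height of the levels played no part.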

How the data were processed

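RNA sequencing of 4 SAG-treated primary MEF cultures was used, 1 library per group. Libraries were stranded and made after polyA selection, per the labels' protocols. Cutadapt 1.9.1, HISAT2 2.0.1 and the GRCm38 genome were used, per the submitters' processing notes. How fragments were counted is not given in the sources used here. Deposited values are FPKM with 2 decimals, beside the authors' exonic length, per the file headers. FPKM times length sums to 1000000 in each file within rounding, so the authors scaled to the fragments assigned to genes.

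The plan allowed for counts. The files hold FPKM, so no count model was run. Fragments were recovered from the steps of the FPKM values: with the depths found, 100% of the genes of at most 200 bases came out whole in every library, within the rounding of the deposited values. Log2 ratios were taken of FPKM + 1 and so understate differences of low genes. Ratios called fold are of deposited FPKM, with exact 95% conditional binomial (Clopper-Pearson) intervals that cover counting error only. At a floor of 3 fragments, a 2 kb gene has 0.0686 FPKM in the knockout, 0.0699 with siDyrk2, 0.0751 with siNeg and 0.0627 in wild type. The steps were tested on simulated data.

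Symbols matched 55480 of 55573 identifiers in GENCODE vM21 (primary assembly). Promoter windows are RefSeq's (GRCm38.p6). Unique words were sought over annotated transcripts, so unannotated copies are not covered. Members and lists were chosen with earlier results of these data known. Named members are those with the 5 highest and 5 lowest ratios in each comparison, the 5 highest and 5 lowest levels, the stalk, paralog pairs and members with known extra roles. Other members, such as Rps3 and Rps26, were named after their values were seen. Up to 4 genes were named from each other list. A few genes that these rules take, and 1 list, are not reported here. Python 3.11.15, pandas 2.3.3, numpy 2.4.6, scipy 1.17.1 and matplotlib 3.10.9 were used.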

Additional observations from a re-analysis of the deposited data

Results flagged for a closer look

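For 10 members the counting interval lay below 1 in the knockout against wild type and above 1 with siDyrk2 against siNeg. Another 13 members lay above 1 in both comparisons, and 0 lay above 1 in the knockout and below 1 with siDyrk2. Of all 84 members, 13 lay below 1 and 16 above 1 in the knockout. With siDyrk2 62 lay above 1, so that most members of any kind are above 1 in the siRNA comparison. Only Rpl10a lay below 1 with siDyrk2, so no other member could have entered the count of 0. The share of all genes with opposite directions is not given here, so the count of 10 has no background beside it. The difference between both comparisons was not tested, because each rests on 1 library per group. Values are given for 8 of the 10, and each is the log2 ratio of the knockout comparison minus that of the siRNA comparison. It was -0.442 for Rps27l, -0.385 for Rps15a, -0.346 for Rps3, -0.324 for Rpl21 and -0.300 for Rpl12. It was -0.288 for Rplp2, -0.252 for Rps21 and -0.206 for Rpl9.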

How the results depend on the processing

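The siDyrk2 median kept its sign under every planned setting, between 0.15 and 0.18, and fell furthest from the reported 0.18 with an alternative chosen after seeing the data: less the median of other genes of the same exonic length class, it was 0.0457, with 57 of 84 members higher. The knockout median ranged from -0.0018 to 0.0394 and the siNeg against wild type median from -0.0307 to 0.0003. Scaling by the median of ratios and by a trimmed mean each gave 53 of 84 members higher in the knockout, against 41 as reported, and knockout against siNeg gave 51. In the order knockout, siDyrk2, siNeg and wild type, the share of fragments was 2.15%, 2.38%, 2.08% and 2.13% without paralog forms. It was 2.35%, 2.61%, 2.28% and 2.33% with the fragments of 298 pseudogenes added, and 2.26%, 2.50%, 2.18% and 2.24% of protein-coding nuclear genes. Of the alternatives for single genes 168 stayed within counting error and 6 moved beyond it: Rpl4, Rplp0 and Rplp1 under median-of-ratios scaling in the knockout and the siDyrk2 comparisons. No paired analysis was possible because each group held 1 library, and for the same reason no replicate could be left out. Depth limits the members under 10 FPKM most.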

Other observations

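Regulators of ribosome production were read in the same libraries. Deptor, an inhibitor in the mTOR complexes, had 5.02 FPKM in the knockout, 2.40 with siDyrk2, 1.50 with siNeg and 1.71 in wild type. It was the only 1 of the 15 measured mTORC1 and TOP regulators at least 1.2-fold higher in the knockout than in wild type. Of all genes 10.1% were. Of those 15 regulators, 4 were higher in the knockout and 11 lower (median log2 ratio -0.05), where 43.7% of all genes were higher. The Myc family list holds Max, Mxd4, Mxi1 and Mnt as well as the Myc genes themselves. Of its 5 measured genes, all 5 were higher in the knockout than in wild type (median log2 ratio 0.26), where 43.7% of all genes were. Myc itself had 14.6, 15.5, 11.6 and 11.8 FPKM in the same order. Of 11 p53 targets 9 were higher with siDyrk2 than with siNeg (median 0.10), where 54.3% of all genes were. With siNeg 10 were lower than in wild type (median -0.20), where 48.3% of all genes were higher. Ccng1 had 173.4, 237.4, 155.7 and 184.5 FPKM. Of 58 small nucleolar RNA genes inside members, 24 were measured and 28 were at 0 in all libraries, in RNA selected for poly(A) tails. Of those 24, 10 were higher with siDyrk2 than with siNeg and 14 lower (median -0.06), where 54.3% of all genes were higher. Snord73a, inside Rps3a1, had 11 fragments with siDyrk2 and 0 in each other library, unlike most of its list.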
